A study of Triticum aestivum with 6 samples.

Results

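In root libraries of Chinese Spring, a cultivar of bread wheat (Triticum aestivum), 166 transcripts were highly abundant and varied little over all 6 libraries, whether or not the roots had been inoculated with a mycorrhizal fungus. They were chosen as identifiers (IDs) that name a wheat chromosome (100231 of the 114264 IDs in the table), at 200 FPKM or more in every library, with the highest library at most 1.5 times the lowest. FPKM is the number of sequenced fragments assigned to a transcript, divided by its length and by the size of the library. Where several IDs carried identical values in all 6 libraries only the first was kept, which removed 1 ID. The 166 made up 0.166% of the chromosome IDs and 47.0% of the 353 chromosome IDs that were at 200 FPKM or more in every library. The remaining 187 of the 353 passed the same floor but varied by more than 1.5 times.

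The AM group comprised 3 libraries from roots given arbuscular mycorrhizal inoculation, with Rhizophagus irregularis as the fungus named by the series title. The sample titles add a molecular signal to these samples without saying which. The NM group comprised 3 libraries from non-mycorrhizal roots without that signal. All plants grew in pots of steam-sterilized soil and quartz sand, each RNA sample was taken from roughly 100 mg of root, and the replicates are called biological in the design text. How old the plants were at harvest, and how far they were colonized, was not given in the sources used here.

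Arbuscular mycorrhizal fungi grow into the root cortex and form branched structures inside its cells, where the fungus delivers phosphate and takes up sugars and lipids from the plant. The transcripts that dominate a root's mRNA in general include those for ribosomal proteins, translation factors, cytoskeletal proteins and water channels, and stable ones of this kind serve as internal references in expression studies. Bread wheat is a hexaploid, so most genes occur as related copies on the A, B and D subgenomes. A search of the reference table, which lists 155467 genes of wheat assembly IWGSC CS RefSeq v2.1, matched 0 of the 166 IDs. No function is therefore assigned to any ID below, the root label was not checked against marker genes, and each ID is identified by the chromosome arm that it states. In whole roots, fewer cells of a type and less RNA per cell cannot be told apart.

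Together the 166 IDs held nearly the same part of the measured transcript pool in every library. Their share of the summed FPKM was 5.82%, 6.13% and 5.81% in AM replicates 1, 2 and 3, against 5.60%, 5.82% and 5.61% in NM replicates 1, 2 and 3. The groups overlapped, because NM replicate 2 lay just above AM replicate 3. The mean share was 5.92% ± 0.18 in AM and 5.67% ± 0.12 in NM (SD, n = 3 each), a difference of 0.245 percentage points. The values that chose the IDs also set these shares, so the difference carries no test. The median member stood at 317, 334 and 306 FPKM in AM replicates 1, 2 and 3, and at 309, 323 and 312 FPKM in NM replicates 1, 2 and 3.

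**Figure D1:**
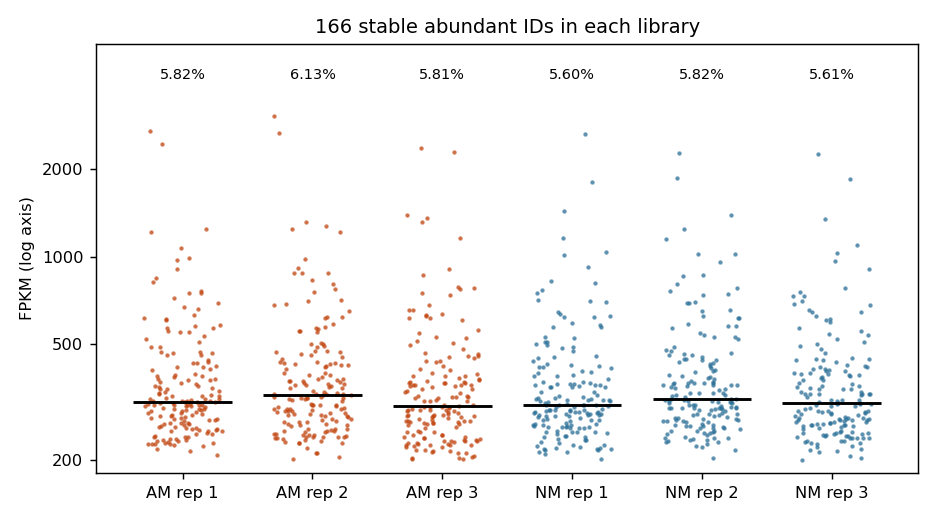
FPKM of the 166 IDs (points, log axis) in each of the 3 AM and 3 NM libraries, with the median as a black line and their share of the summed FPKM printed above. Medians lie between 306 and 334 FPKM, and the shares of the groups overlap.

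Replicate 2 of each group tended to hold the highest values. The highest library was AM replicate 2 for 59 IDs and NM replicate 2 for 45, whereas AM replicates 1 and 3 were highest for 18 and 19 IDs, and NM replicates 1 and 3 for 14 and 11. The lowest library was AM replicate 3 for 51 IDs, NM replicate 3 for 37 and NM replicate 1 for 36. Relative to each ID's own geometric mean, the median member lay at 1.06 in AM replicate 2 and 0.961 in AM replicate 3, and at 1.04 in NM replicate 2. Dividing each library by the median ratio of all IDs at 1 FPKM or more throughout left replicate 2 of each group highest most often, for 52 IDs in AM and 44 in NM. AM replicates 1 and 3 were then highest for 15 and 19 IDs, and NM replicates 1 and 3 for 19 and 17. The lowest library was still AM replicate 3 for 51 IDs, but NM replicates 1 and 3 for 30 and 28, and AM replicate 1 for 24 in place of 16.

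Levels among the 166 IDs spanned a wide range and were concentrated near the floor. The mean over the 6 libraries ran from 219.6 to 2552 FPKM with a median of 319 (quartiles 265 and 418). It lay under 300 FPKM in 68 IDs, from 300 to 400 in 53, from 400 to 500 in 16, from 500 to 1000 in 23, and at 1000 or more in 6. The 10 most abundant IDs held 19.0% of the summed mean level of all 166. In each AM library the most abundant member was the fifth of all IDs in the table, and in NM replicates 1, 2 and 3 it ranked 10, 10 and 8.

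Traes_2DL_027511B9F, on the long arm of chromosome 2D, was the most abundant. It stood at 2711, 3061 and 2365 FPKM in AM replicates 1, 2 and 3, against 2655, 2268 and 2254 FPKM in NM. The groups overlapped, since NM replicate 1 lay above AM replicate 3. Its fitted log2 fold change was 0.18 with a standard error of 0.17.

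The second, Traes_4DS_AFAF2A29E on the short arm of 4D, had the largest fitted change of all 166. Its values were 2440, 2656 and 2289 FPKM in AM, against 1812, 1863 and 1848 FPKM in NM. Every AM library lay above every NM library, and the NM libraries were close together, with a mean of 1841 ± 26 FPKM (SD, n = 3) against 2461 ± 184 FPKM (SD, n = 3) in AM. The fitted log2 fold change was 0.42 with a standard error of 0.14, and the ID was not called (adjusted p = 0.0977, limma with Benjamini-Hochberg adjustment over all tested IDs).

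Of the next 3 IDs, the first 2 overlapped between groups and the third did not. Traes_7BL_E69657E80 stood at 1249, 1312 and 1391 FPKM in AM, against 1039, 1241 and 1345 FPKM in NM. Traes_7AL_D93FC054C was at 992, 1214 and 1320 FPKM in AM, against 1438, 1395 and 1098 FPKM in NM, so AM replicate 3 lay above NM replicate 3 although the AM mean was lower. Traes_5BL_88E594FCF reached 1221, 1246 and 1354 FPKM in AM, against 1161, 1150 and 967 FPKM in NM, with each AM library above each NM library.

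Traes_1AL_DDEE6AC00 had nearly equal group means but unequal spreads. Its AM values were 971, 1270 and 866 FPKM and its NM values 1016, 1019 and 1032 FPKM, giving 1036 ± 210 in AM and 1022 ± 9 FPKM in NM (SD, n = 3 each). The NM libraries lay inside the range of the AM libraries. Traes_7AS_F9453680B, on the short arm of 7A, had 1072, 984 and 1162 FPKM in AM, against 919, 1022 and 777 FPKM in NM. Its AM replicate 2 lay below NM replicate 2.

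The last 3 of the 10 lay under 1000 FPKM, with 2 of them on the long arm of 7D. Traes_7DL_50ED7AFF4 varied least of the 10, at 843, 878 and 905 FPKM in AM, against 809, 955 and 910 FPKM in NM. Traes_2AS_D940B19D1 had 764, 881 and 783 FPKM in AM and 766, 862 and 733 FPKM in NM, and in both groups replicate 2 was the highest. Traes_7DL_300C570AD stood at 816, 915 and 789 FPKM in AM, against 642, 781 and 701 FPKM in NM, and its groups did not overlap. In all, 3 of the 10 lay wholly higher in AM and 0 lay wholly lower, beside 22.6% and 15.9% of all 64974 tested IDs, and nothing is read from so few.

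**Figure D2:**
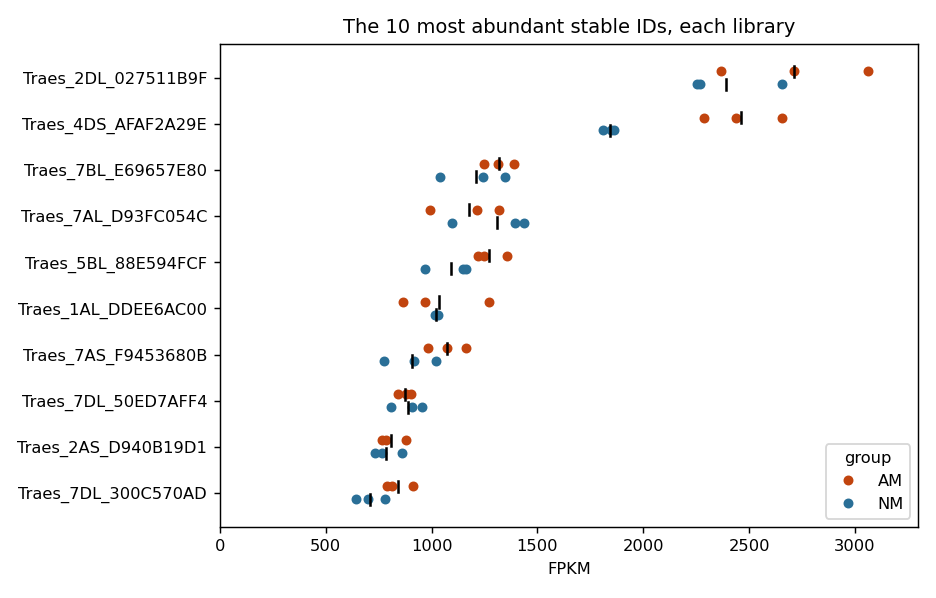
FPKM of the 10 most abundant of the 166 IDs in each library, AM above NM within each ID, with the group mean as a black bar. The groups are separate for Traes_4DS_AFAF2A29E, Traes_5BL_88E594FCF and Traes_7DL_300C570AD and overlap for the others.

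The IDs that varied least covered a range of levels. Traes_2BS_6015BC7C6 had the lowest ratio of highest to lowest library, 1.08, with 567, 552 and 527 FPKM in AM and 527, 568 and 568 FPKM in NM. Traes_2BL_62EEAC62E followed at 1.09, with 277, 281 and 258 FPKM in AM and 260, 274 and 265 FPKM in NM. All 6 values of either ID lay in a narrow band in which the groups overlapped. Traes_2DL_B7F8FFEB9, at a ratio of 1.13, stood at 753, 772 and 753 FPKM in AM, against 698, 738 and 684 FPKM in NM, and did not overlap between groups. A low ratio over all libraries therefore did not mean that the groups shared their range.

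Over the 166 IDs the ratio of highest to lowest library had a median of 1.31 (quartiles 1.23 and 1.36). Within AM alone the median ratio was 1.18 and within NM alone 1.14. The coefficient of variation among replicates had a median of 8.30% in AM and 7.11% in NM, and it was wider in AM for 90 of the 166 IDs. For the 187 IDs at the same floor that varied by more than 1.5 times, the medians were 19.95% in AM and 16.5% in NM. The ratio over all 6 libraries also caps the ratio within each group at 1.5 for the 166, so the narrower spread follows from the choice and is no result about them.

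Near the thresholds there was no gap. Just inside the ratio were Traes_7AS_F9453680B at 1.4962 and TRAES3BF058200010CFD_g, an ID of chromosome 3B, at 1.4948. The 3B ID had 387, 443 and 296 FPKM in AM and 397, 401 and 393 FPKM in NM, so its ratio came wholly from AM replicates 2 and 3. Just outside were Traes_7AL_C69731F11 at 1.5059 and Traes_1AS_A29124227 at 1.5079. Of the 353 IDs, 30 had a ratio above 1.4 and up to 1.5, and 29 had one above 1.5 and up to 1.6. At the floor, the lowest library stood at 200.15 FPKM for Traes_1BL_19E3557DD and 200.45 FPKM for Traes_4BL_FBE8A057A, which were members. It stood at 199.51 FPKM for Traes_3DS_9C173AB38 and 199.32 FPKM for Traes_4AS_513DFF78C, which were not.

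**Figure D3:**
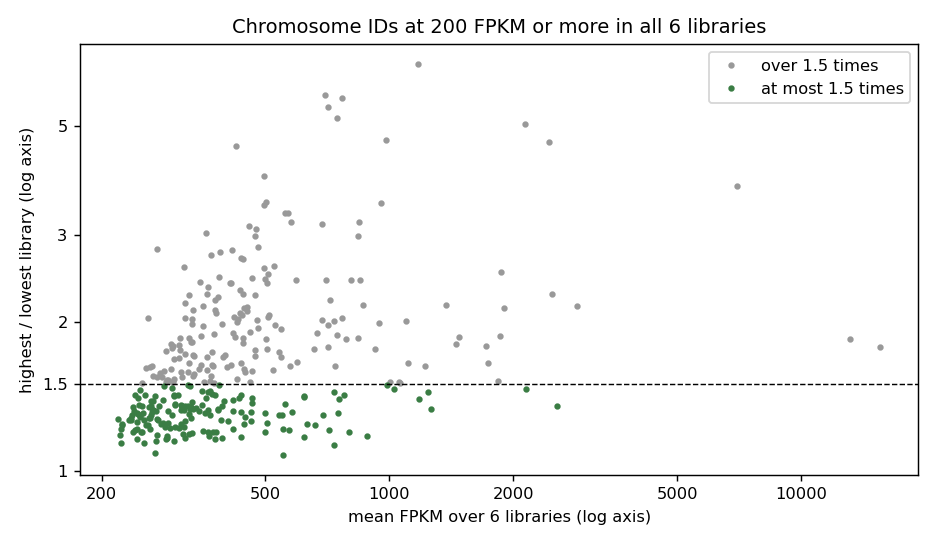
Ratio of the highest to the lowest library against the mean FPKM over 6 libraries, both on log axes, for the 353 chromosome IDs at 200 FPKM or more in every library. The 166 IDs at or under the dashed line at 1.5 are green, and the distribution runs through the line without a gap.

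The study compared AM with NM roots, and the 166 IDs were chosen to differ little in that comparison, so what follows describes them and tests nothing. In limma on log2(FPKM + 1), 0 of the 166 were called higher and 0 lower in AM at an adjusted p under 0.05 (Benjamini-Hochberg). Over all 64974 tested IDs, 11.2% were called higher and 7.14% lower. At an unadjusted p under 0.05 in limma there were 7 of the 166, against 20813 of the 64974 tested IDs. The rule itself leaves little room for a call. A change of 1.5-fold is 0.58 on the log2 scale, and among the 162 called IDs with a mean of 200 FPKM or more only 8 had a fitted change of that size or less. The smallest of those changes was 0.46.

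Fitted changes of the 166 IDs lay between -0.30 and 0.42 on the log2 scale, with a median of 0.01 (quartiles -0.09 and 0.12) beside a median of 0.05 over all tested IDs. After rescaling by median ratios these medians were -0.02 and 0.02, so the sign of the members' median depended on the scaling. The median standard error of a member's fitted change was 0.14. The change was within 1 standard error of 0 for 106 IDs and beyond 2 standard errors for 14. No share over all tested IDs is given beside these counts, so nothing is read from them. The AM mean was the higher for 89 IDs and the lower for 77.

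Although no ID was called, some of the 166 had groups that did not overlap. In 20 IDs every AM library lay above every NM library, and in 12 every AM library lay below, while the groups overlapped in 134. The same separation held for 22.6% and 15.9% of all tested IDs. The 20 had AM means from 1.07 to 1.34 times the NM mean, and the 12 had means from 0.809 to 0.916 times. Mean levels under 500 FPKM were found in 15 of the 20 and in all 12, beside 137 of the 166.

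A pair of these IDs was chosen for its values after they had been seen. Traes_5AL_405C613C0 had the second largest fitted change, with 468, 499 and 514 FPKM in AM, against 360, 367 and 405 FPKM in NM (log2 fold change 0.39, standard error 0.12, adjusted p = 0.0776, limma). Traes_4BL_5A55280B4 had the most negative, with 226, 219 and 212 FPKM in AM, against 259, 277 and 276 FPKM in NM (log2 fold change -0.30, standard error 0.11, adjusted p = 0.113, limma). In each case the libraries of a group lay closer to one another than to the other group, yet neither ID passed the threshold.

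IDs were also chosen on the libraries of 1 group alone and then read in the other. The same thresholds on the 3 AM libraries gave 358 chromosome IDs, and on the 3 NM libraries 472. All 166 belong to both sets. They were 46.4% of those chosen on AM (exact 95% binomial interval 41.1% to 51.7%) and 35.2% of those chosen on NM (interval 30.9% to 39.7%), where the intervals cover counting error only and related IDs are not independent. Each share draws on all 6 libraries, 3 for the choice and 3 for the reading, and the shares were not tested against each other.

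The IDs abundant and stable in NM roots included many that were far lower in AM roots. Of the 472, the AM mean lay within 1.5-fold of the NM mean in 313 (66.3%), over 1.5-fold higher in 17 and over 1.5-fold lower in 142. It was under 0.5 times the NM mean in 105 IDs (22.2%) and under 0.25 times in 61, whereas it exceeded 2 times the NM mean in 3. With AM replicate 1, 2 or 3 left out, the number under 0.5 times was 109, 110 and 105. Requiring a level of 200 FPKM in NM and not in AM favours IDs that are lower in AM, so the reverse choice is given beside it. That choice favours IDs that are higher in AM. No share over all tested IDs is given beside the counts of either choice, so no trait of the chosen IDs is read from them.

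Of the 358 IDs abundant and stable in AM roots, the AM mean lay within 1.5-fold of the NM mean in 281 (78.5%), over 1.5-fold higher in 67 and over 1.5-fold lower in 10. It exceeded 2 times the NM mean in 23 IDs (6.42%) and 4 times in 5, and it was under 0.5 times in 4. Without NM replicate 3 the number above 2 times was 38, and the number under 0.5 times was 1. With NM replicate 1 or 2 left out, 20 and 23 IDs lay above 2 times. The replicates themselves stayed within 1.5-fold in the group that had not been used for the choice in 81.0% of the IDs chosen on AM and in 62.7% of those chosen on NM. Over all chromosome IDs with means of 200 to 500 FPKM, the NM replicates stayed within 1.5-fold in 76.0% and the AM replicates in 63.6%. The 81.0% and 62.7% lay near these shares, so they are not read as a trait of the chosen IDs.

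**Figure D4:**
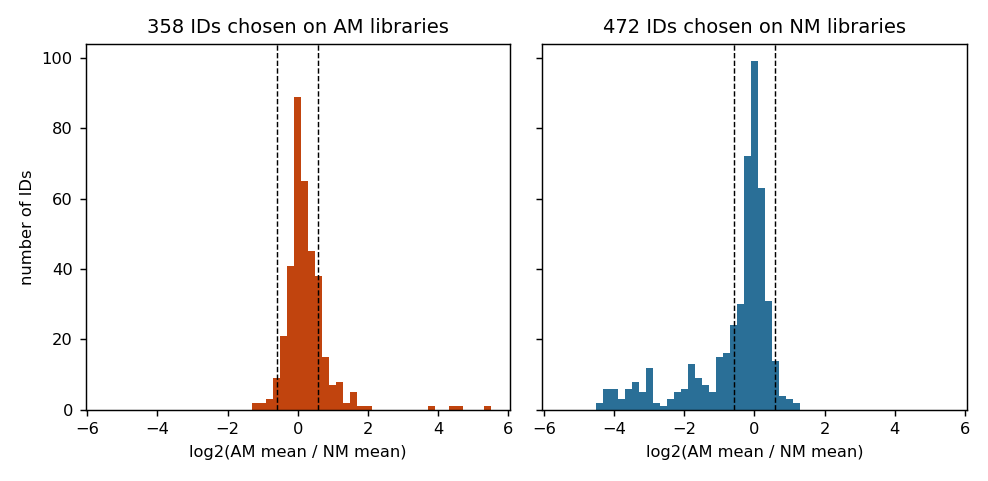
Number of IDs by log2 of the AM mean over the NM mean, for 358 chromosome IDs chosen on the AM libraries (left) and 472 chosen on the NM libraries (right), with dashed lines at a 1.5-fold difference. The left set has 23 IDs above a 2-fold difference, and the right set has a tail of 105 IDs under 0.5 times.

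AM libraries also held fewer IDs at such levels. Chromosome IDs at 200 FPKM or more numbered 639, 665 and 598 in AM replicates 1, 2 and 3, against 711, 759 and 732 in NM replicates 1, 2 and 3. The means were 634 ± 34 in AM and 734 ± 24 in NM (SD, n = 3 each). Every AM library held fewer than every NM library. An exact permutation test (two-sided) gave p = 0.1, and with 3 libraries a group it cannot go lower.

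Leaving out single libraries showed how much each one decided the membership. On 5 libraries the rule gave 222 IDs without AM replicate 3, 202 without AM replicate 2 and 177 without AM replicate 1, against 184, 176 and 191 without NM replicate 1, 2 or 3. Of the 222, the left-out AM replicate 3 held 48 IDs too low and 8 too high for the thresholds. Of the 202, the left-out AM replicate 2 held 25 too high and 11 too low. AM replicate 3 thus removed the most IDs of any library, mostly by low values.

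From 10 to 500 FPKM, small variation was about as frequent at moderate as at high levels. Over all chromosome IDs, counted once where values were identical, the share whose highest library was at most 1.5 times the lowest was 13.3% at means of 1 to 5 FPKM and 29.4% at 5 to 10 FPKM. It was 34.3% at 10 to 20 FPKM and 34.7% at 100 to 200 FPKM. At 200 to 500 FPKM it was 33.2% (181 of 546 IDs), at 500 to 1000 FPKM 26.7% (23 of 86) and at 1000 FPKM or more 6 of 30 IDs were within the ratio. The number of fragments behind a value is not known from FPKM, and its part in these shares was not tested.

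The chromosome stated in the ID was not used to choose members beyond the requirement that there be one. Among the 166 were 55 IDs of the A subgenome, 53 of B and 58 of D. These are 33.1%, 31.9% and 34.9%, beside 32.3%, 34.4% and 33.3% of the 54094 tested chromosome IDs. Among the 353 IDs at 200 FPKM or more in every library, 55 of 102 A IDs (53.9%), 53 of 140 B IDs (37.9%) and 58 of 111 D IDs (52.3%) were within the ratio. Chromosome 3B held 10 within the ratio of 36, and 32 of the 36 begin with TRAES3BF, an ID series used for this chromosome alone. With the chromosomes of group 3 left out, the shares were 52.2% of 92 A IDs, 41.3% of 104 B IDs and 53.8% of 106 D IDs. Related copies can share reads, so IDs of a gene family need not be independent, and the shares were not tested.

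Members lay on all 21 chromosomes, most often on 7D with 15, 5B with 14, and 2A, 2B and 2D with 12 each. Chromosome 7D held 9.04% of the members beside 5.04% of the tested chromosome IDs, and 5B held 8.43% beside 6.08%. Chromosomes 2A, 2B and 2D held 7.23% each, beside 5.76%, 6.39% and 6.04%. Chromosomes 3D and 6B held 1 each and 7B held 2. By homoeologous group, group 2 held 36 and group 5 held 34, 21.7% and 20.5% of the members beside 18.2% and 15.4% of the tested IDs. Group 6 held 10, 6.02% beside 11.6%. Of the 40 arms named by IDs, 36 held a member, and 1AL, 5BL and 7DL held the most, with 9 each. Each of these arms held 5.42% of the members, beside 3.00%, 4.81% and 2.63% of the tested IDs. Long arms held 100 and short arms 56 of the members, 60.2% and 33.7% beside 59.4% and 34.7% of the tested IDs. The tested IDs include many at low levels. Of IDs at 200 FPKM or more in every library, 57.7% of the 26 on 7D and 58.3% of the 24 on 5B were within the ratio. The share was 47.0% over all such IDs, and some chromosomes stood above 7D, among them 3A (70% of 10) and 5A (69.2% of 13). The shares by chromosome and arm were not tested.

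**Figure D5:**
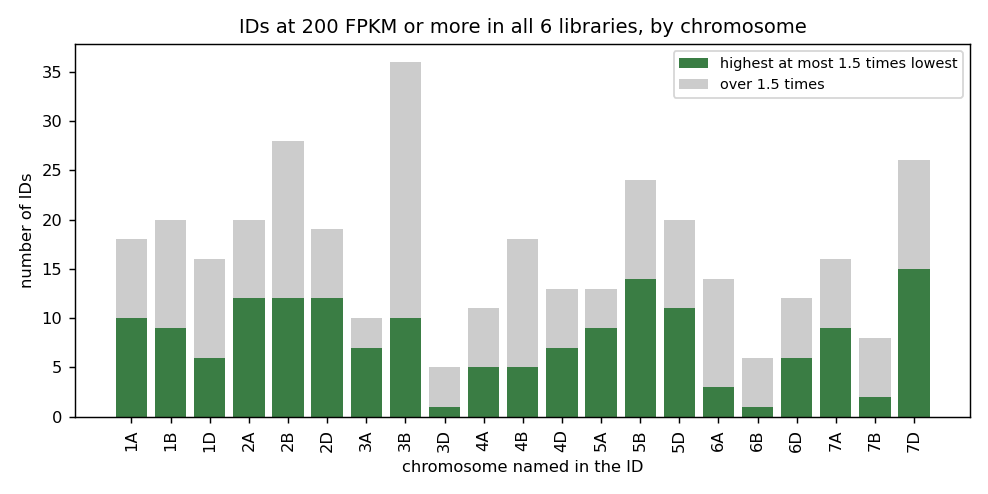
Number of chromosome IDs at 200 FPKM or more in all 6 libraries, by the chromosome stated in the ID, split into those whose highest library is at most 1.5 times the lowest (green) and the rest (grey). Chromosome 7D holds the most green IDs (15), and chromosome 3B holds the most IDs in all (36), of which 10 are green.

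In summed level the D members contributed the most. Members on D made up 2.30%, 2.43% and 2.30% of the summed FPKM in AM replicates 1, 2 and 3, against 2.16%, 2.26% and 2.18% in NM. Members on A made up 1.76%, 1.87% and 1.79% in AM, against 1.76%, 1.84% and 1.74% in NM. Members on B made up 1.76%, 1.82% and 1.73% in AM, against 1.68%, 1.72% and 1.69% in NM. The pair of IDs with the highest means, Traes_2DL_027511B9F and Traes_4DS_AFAF2A29E, are both D IDs. The median levels were closer, at 341 FPKM for D, 318 for B and 313 for A.

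The 9 members that begin with TRAES3BF had means from 237 to 735 FPKM. Among IDs that name no chromosome, 29 stood at 200 FPKM or more in every library and 18 of them were within the ratio. All 29 begin with XLOC. The 18 had means from 242 to 650 FPKM, with a median of 370 FPKM, and were left out of the 166 by their ID alone.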

How the data were processed

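The deposited table holds FPKM values, 1 column per library per the file headers, with paired reads of 150 bp per the labels' protocols. Per the submitters' processing notes the tools included TopHat2, Cufflinks, RSEM and edgeR, with no version or role stated. Genome build and annotation: not given in the sources used here. All 6 columns matched a sample title (0 columns unused). Read counts were not used, so depth is unknown. The AM against NM fit used log2(FPKM + 1) in limma 3.58.1 under R 4.3.3, with the trend option, over the 64974 IDs that reached 1 FPKM in 3 libraries or more, with Benjamini-Hochberg adjustment and no block. The step was tested on simulated data. Other values used Python 3.11.15 and SciPy 1.17.1. The members and lists were chosen with earlier results of these data known. Named IDs were the 10 highest means, the 3 lowest ratios, the 2 nearest each threshold on either side and any called members (0). The described lists of root, leaf and general marker genes had 0 members, because no ID was matched to a name.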

Additional observations from a re-analysis of the deposited data

How the results depend on the processing

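Choosing members within a 1.5-fold ratio leaves little room for a call, so counts of 0 called members follow largely from that choice. In the main fit the largest member change was 0.42 on the log2 scale. The smallest among called IDs with a mean of 200 FPKM or more was 0.46. In limma, 0 members were called higher and 0 lower at the other settings too. These were a pseudocount of 0.1, no filter, median-ratio rescaling, an adjusted p under 0.01, each library left out and a block for replicate number. Same-numbered libraries had deviations correlating at 0.124, 0.0708 and 0.0437, so the number was not taken as a pairing, although each AM library correlated best with its own number. The number of members was 504 or 36 with a floor of 100 or 400 FPKM, 80 or 269 with a ratio of at most 1.3 or 2, and 176 to 222 with a library left out. After median-ratio rescaling it was 176, of which 162 were among the 166. Of IDs chosen on AM, the share within the rule in NM was 40.9% at 400 FPKM, 30.9% and 61.8% at ratios of 1.3 and 2, and 42.5% to 53.4% with a library left out. Of IDs chosen on NM, the share within the rule in AM was 27.7%, 22.5% and 49.4% at these settings, and 30.5% to 47.0% with a library left out. A floor of 100 FPKM and median-ratio rescaling kept both shares inside their 95% intervals. Those intervals cover counting error over IDs and not the spread among libraries. With every ID of the table admitted there were 184 members, and with identical IDs all counted 167. Stricter or wider thresholds change these values by construction, and the cause of the other shifts was not tested. The difference in summed share ran from 0.142 to 0.317 percentage points with a library left out. All 160 alternative fold changes of the 16 named members stayed within 1 SD of their replicates, but most of them could not do otherwise. With 3 libraries a group, leaving 1 out cannot shift a fold change by 1 SD. The block and unfiltered fits return the same fold change as the main fit. The sign turned in at least 1 setting for 7 of the 16 named members, none of them called. The subgenome shares without group 3 were added after the data had been seen. FPKM gives no fragment numbers, so the limit that depth sets is unknown.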
